A study of Mus musculus with 13 samples.

Results

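The genes described are 9 genes of iron storage and transport, of the 19737 genes measured in microglia, the resident macrophages of the brain: Fth1, Ftl1, Ncoa4, Tfrc, Steap3, Slc11a2, Slc11a1, Slc40a1 and Hmox1. They were chosen by name for what their proteins do and by no rule on their values, though with earlier results of these data known. All 9 were in the table. RNA depleted of ribosomal RNA was sequenced from 13 mouse libraries. AAV PHP.eB-EGFP, an adeno-associated virus that carries a fluorescent protein, was given to wild type (n = 3) and 5xFAD mice (n = 2). Other 5xFAD mice (n = 4) had received AAV PHP.eB-circPOLR2A, which carries a circular RNA, and a last group was 5xFAD; PKR KO (n = 4), labelled as a knockout of PKR, the kinase that senses double-stranded RNA, and for which the labels name no virus. All 3 of the 5xFAD groups carry the same disease transgenes, which the Thy1 promoter drives in neurons and not in the microglia measured. The series design gives each n as a number of mice; age, sex, how microglia were isolated and whether mice were pooled are not given in the sources used here. The treatment labels of the circRNA libraries read circPOLR2A(9,10), (9,11), (9,12) and (9,13) for replicates 1 to 4, while the series design names (9,10) for the whole group, and they were kept as 1 group by their titles.

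Iron enters most cells bound to transferrin through the transferrin receptor, is reduced in the endosome by STEAP3 and crosses into the cytosol through DMT1, the product of Slc11a2. Macrophages also recover iron from engulfed material, through NRAMP1 on the phagosome (Slc11a1) and by haem breakdown (Hmox1). Surplus iron is stored in ferritin, a shell of heavy (Fth1) and light (Ftl1) chains that NCOA4 delivers to lysosomes when iron is needed, or leaves the cell through ferroportin (Slc40a1), the iron exporter. When iron is scarce, iron regulatory proteins bind a hairpin in the RNA called the iron-responsive element: in the 5′ UTR it blocks translation of ferritin and ferroportin, and in the 3′ UTR it protects the transferrin receptor RNA from decay. In microglia, ferritin is an abundant product and is known from iron-laden cells near amyloid plaques.

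The hairpins are shown because iron regulatory proteins act through them. On a hairpin in the 5′ UTR they act mainly on translation, which RNA sequencing does not measure, and on those of Tfrc in the 3′ UTR on RNA stability. UTRs of the GENCODE M21 annotation (build GRCm38) were searched on the transcript strand for the loop CAGTGN with a C bulge before it and at least 4 of 5 stem bases paired. Each window of 30 bases is in lower case, 5′ to 3′, with the loop in capitals.
Fth1 5′ UTR, chr19:9982732-9982761, plus strand: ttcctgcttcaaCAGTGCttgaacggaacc
Ftl1 5′ UTR, chr7:45459778-45459807, minus strand: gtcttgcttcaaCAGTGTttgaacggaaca
Slc40a1 5′ UTR, chr1:45925464-45925493, minus strand: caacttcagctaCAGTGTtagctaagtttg
Tfrc 3′ UTR, chr16:32631219-32631248, plus strand: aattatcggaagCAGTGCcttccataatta
Tfrc 3′ UTR, chr16:32631598-32631627, plus strand: cattatcgggagCAGTGTcttccataatgc
Tfrc 3′ UTR, chr16:32631663-32631692, plus strand: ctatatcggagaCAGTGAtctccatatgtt
Tfrc 3′ UTR, chr16:32631710-32631739, plus strand: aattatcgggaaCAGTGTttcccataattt
Slc11a2 3′ UTR, chr15:100395152-100395181, minus strand: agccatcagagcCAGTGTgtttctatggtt

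In the Fth1, Ftl1, Slc40a1 and Tfrc windows all 5 stem bases paired. In Slc11a2, 4 of 5 paired, and the window lies in an isoform that is not the annotated principal one; the deposited value is 1 per gene and does not separate isoforms. The rule found a window in the 5′ UTR of 175 of 20409 genes (0.857%) and in the 3′ UTR of 856 of 20818 genes (4.11%), over UTRs of unequal length. It found none in Hmox1, Slc11a1, Steap3 or Ncoa4, which says only that these letters are not in their annotated UTRs.

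Levels are given as FPKM, fragments of a gene divided by its length in kilobases and by the depth of the library, as deposited. Tests are limma's on log2(FPKM + 1) for the 10817 genes that averaged 1 FPKM or more, with p-values adjusted by the Benjamini-Hochberg method over all of them and a threshold of 0.05. A log2 change on this scale understates the change of genes of a few FPKM. Of the 9 genes, 8 passed the filter, and Steap3 did not. Depth recovered from the values was 45.2 to 70.0 M (mega) fragments a library, and counting error was at most 4.16% for the 8 tested genes. Wild type replicate 3 stood apart from the other wild type libraries, with a chi-square per degree of freedom of 149 and 180 against them, where that pair gave 19.2. Its summed microglial markers were 2809 FPKM, against 4466 and 4567 in wild type 1 and 2. Its astrocyte markers summed to 309 FPKM against 114 and 90.4, and its neuron markers to 17.7 FPKM against 7.01 and 5.74. Sums for oligodendrocytes, endothelial and mural cells, border macrophages and red cells are given below. The RNA of the PKR gene itself, Eif2ak2, was 3.31 to 4.61 FPKM in the PKR KO libraries and 6.49 to 8.11 in the other 5xFAD libraries, but 4.14 to 5.23 in wild type, which overlaps with PKR KO. The deposited value is 1 per gene and does not show which part of the gene the knockout removed. Library names in the labels appear for the PKR KO libraries alone, so knockout and library batch cannot be told apart. With no virus named for PKR KO and an AAV for every other group, knockout and virus cannot be told apart from the labels either. Each comparison with wild type used the same 3 wild type libraries, so those comparisons are not independent of each other. In RNA of many cells together, a change in the number of cells that express a gene and a change in RNA per cell cannot be told apart.

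Ferritin light chain RNA stood higher in every 5xFAD group than in wild type microglia, and heavy chain RNA passed with circRNA and in PKR KO alone. Ftl1, the light chain that helps the iron core form, was 173.5, 161.9 and 122.6 FPKM in wild type. It was 318.3 and 289.7 FPKM in 5xFAD EGFP. It was 339.7, 368.0, 409.5 and 292.6 FPKM with circRNA and 412.9, 392.7, 371.0 and 362.0 FPKM in PKR KO. Every 5xFAD library lay above every wild type library. Against wild type, Ftl1 rose by 1.00 ± 0.18 log2 units (SE) in 5xFAD EGFP, with a limma adjusted p of 0.00305. It rose by 1.21 ± 0.15 with circRNA (limma adjusted p = 9.32e-05) and by 1.34 ± 0.15 in PKR KO (limma adjusted p = 3.13e-05). In order of mean level the groups were wild type at 153 ± 26.7 (SD, n = 3), 5xFAD EGFP at 304 ± 20.2 (n = 2), circRNA at 352 ± 49.1 (n = 4) and PKR KO at 385 ± 22.8 FPKM (n = 4). Within 5xFAD, neighbours in that order did not pass the test of their difference. When only wild type and 5xFAD EGFP were fitted, the change was the same size and its limma adjusted p was 0.0768.

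Ftl1 (GRCm38 chr7:45457944-45459884, minus strand) has a near-identical copy, Ftl1-ps1 on chromosome 13, and the counting may have split reads between them. Ftl1-ps1 was listed at 0.343 to 0.448 of the Ftl1 level in all 13 libraries. Its level was 48.9 to 70.3 FPKM in wild type and 102 to 184 FPKM over the 5xFAD libraries. The ratio of the copies overlapped between all 4 groups, and each copy alone separated 5xFAD from wild type without overlap.

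Fth1, the heavy chain with the ferroxidase site (chr19:9980598-9985098, plus strand), varied more. It was 159.3, 129.4 and 349.8 FPKM in wild type. In 5xFAD EGFP it was 320.8 and 410.1 FPKM. With circRNA it was 495.7, 344.2, 341.6 and 476.4 FPKM, and in PKR KO it was 364.4, 333.8, 307.6 and 456.3 FPKM. Wild type replicate 3 lay within the 5xFAD range, and the other wild type libraries lay below every 5xFAD library. In 5xFAD EGFP the difference from wild type was 0.90 ± 0.35 log2 units, which did not pass (limma adjusted p = 0.117). Without wild type replicate 3 it was 1.33, with a limma adjusted p of 0.00315. Fth1 rose by 1.07 ± 0.29 with circRNA (limma adjusted p = 0.0179), a call kept under 11 of 14 other settings. It rose by 0.90 ± 0.29 in PKR KO (limma adjusted p = 0.0307), a call kept under 5 of 14 and lost without wild type replicate 1 (0.111) or replicate 2 (0.125). Without replicate 3 these changes were 1.50 and 1.33. The group means ran from wild type (213 ± 120 FPKM) through 5xFAD EGFP (365 ± 63.1) and PKR KO (366 ± 64.8) to circRNA (414 ± 83.0), and the 3 of 5xFAD did not differ beyond their spread.

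Oligodendrocytes also hold much ferritin heavy chain, and their RNA was present. The 5 markers Mbp, Mog, Mobp, Mag and Cnp summed to 353, 314 and 1452 FPKM in wild type and to 539.9 and 576 FPKM in 5xFAD EGFP. They summed to 636, 281, 267 and 699 FPKM with circRNA and to 235, 208, 209.6 and 339 FPKM in PKR KO, and none of the 5 was at 0. None of them passed the test in 5xFAD EGFP against wild type. In each group the libraries with the highest sums (wild type 3, 5xFAD EGFP 2, circRNA 1 and 4, PKR KO 4) were those with the highest Fth1. Across groups the order differed: circRNA 2 and 3 and PKR KO 1 to 3 had sums below the 314 FPKM of wild type 2, and Fth1 of 307.6 to 364.4 FPKM against its 129.4. The part of oligodendrocyte RNA in the Fth1 values was not tested. Within each group Ftl1 was lowest in the library with the highest sum: wild type 3, 5xFAD EGFP 2, circRNA 4 and PKR KO 4. The Fth1 to Ftl1 ratio of FPKM was 0.918 and 0.800 in wild type 1 and 2 and 2.85 in wild type 3, against 0.829 to 1.63 in 5xFAD.

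**Figure D1:**
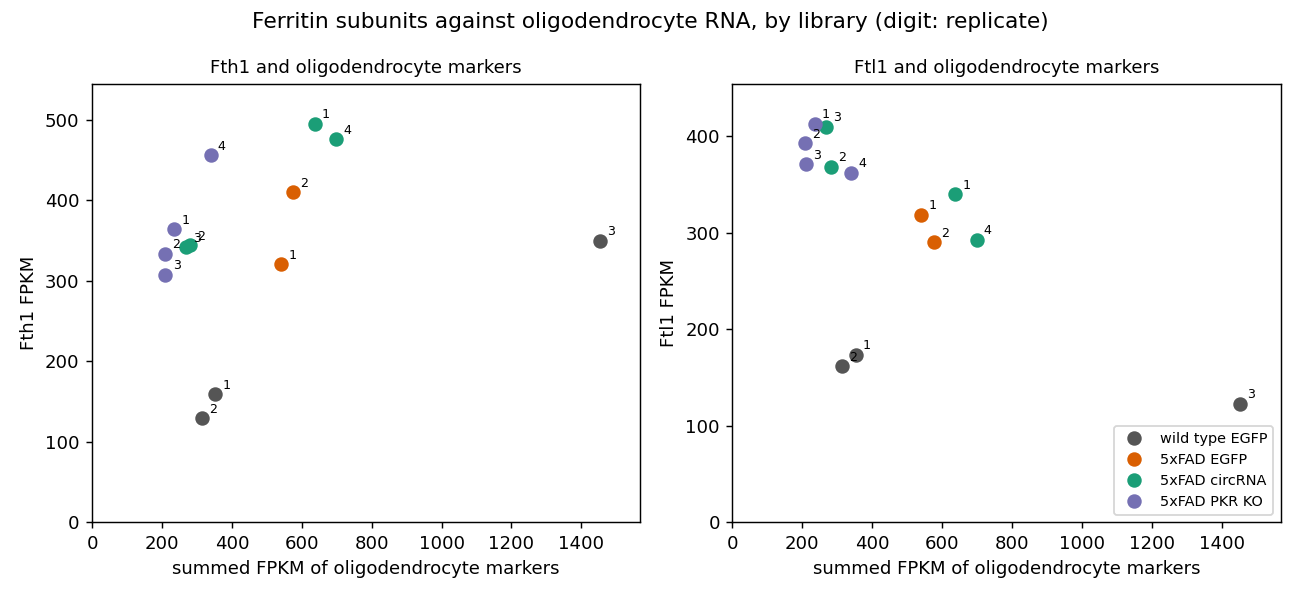
Level of Fth1 (left) and Ftl1 (right) in FPKM on the vertical axis against the summed FPKM of 5 oligodendrocyte markers, 1 point a library, coloured by group and numbered by replicate. Wild type 3 stands alone at 1452 on the horizontal axis, and Ftl1 of wild type is at most 173.5 FPKM.

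NCOA4, the receptor that carries ferritin to the lysosome, is encoded by Ncoa4 (chr14:32159865-32179855, plus strand). Its RNA was 4.90, 4.32 and 3.66 FPKM in wild type and 3.83 and 3.30 FPKM in 5xFAD EGFP. With circRNA it was 3.54, 4.20, 4.69 and 3.70 FPKM, and in PKR KO it was 4.06, 3.40, 3.82 and 3.56 FPKM. All 4 groups overlapped, and Ncoa4 passed no comparison. The difference of 5xFAD EGFP from wild type was -0.21 log2 units with a 95% interval of -0.47 to 0.05. With all libraries rescaled to the same FPKM sum, which moved the median of all genes to -0.17, -0.20 and -0.24, the changes from wild type were -0.35, -0.31 and -0.35 in 5xFAD EGFP, circRNA and PKR KO, and passed.

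**Figure D2:**
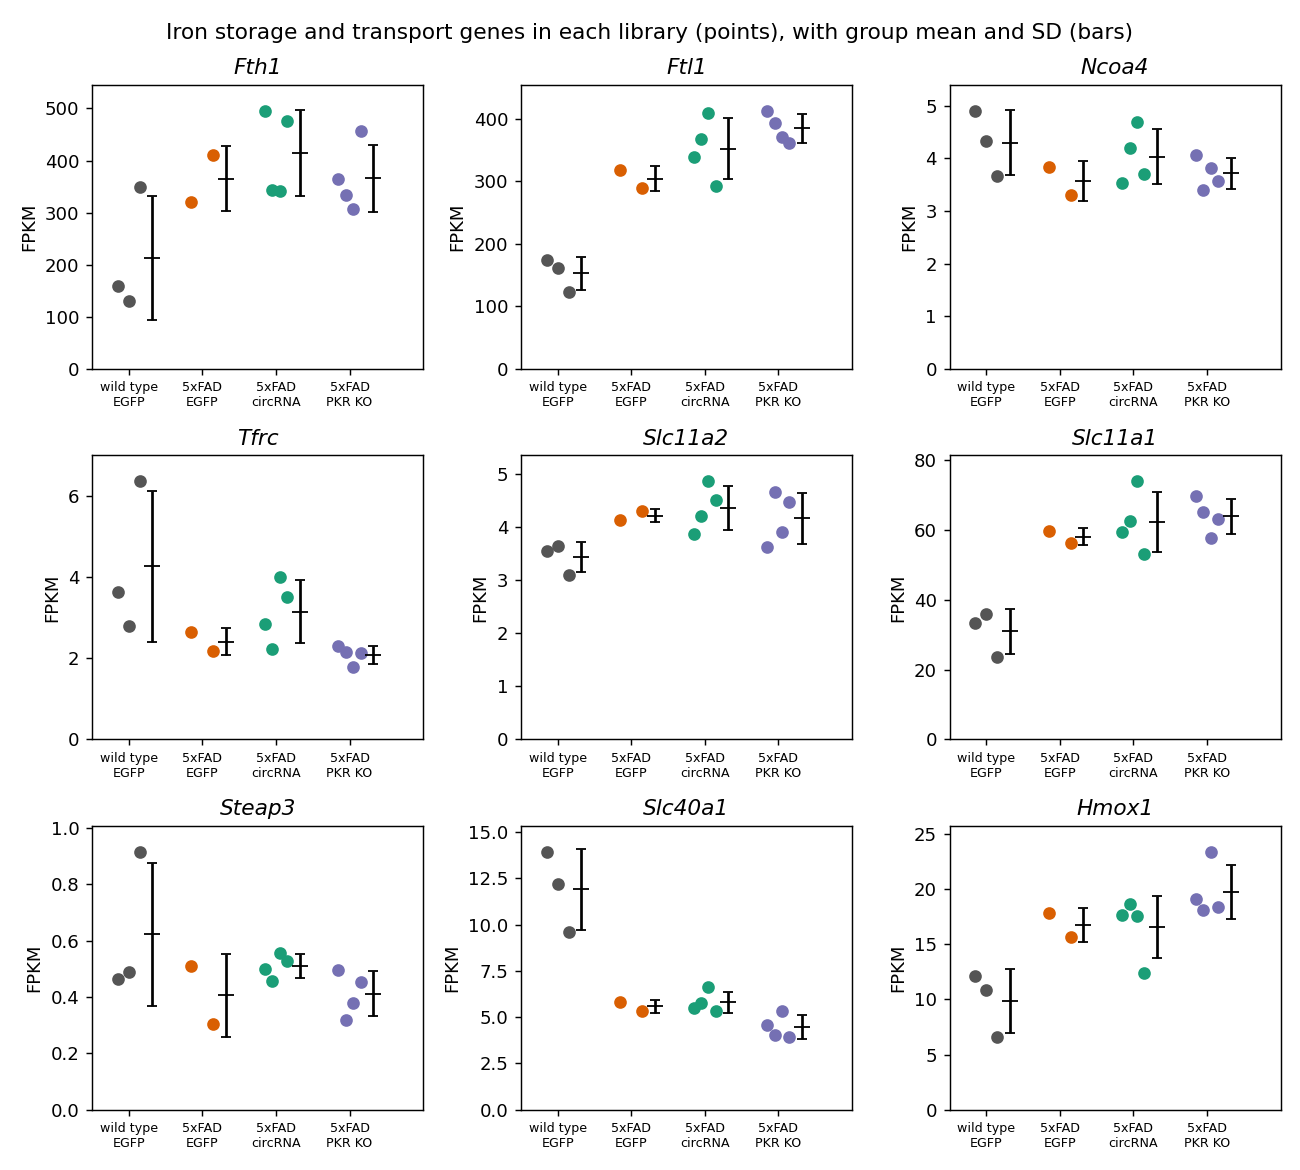
FPKM of the 9 genes (vertical axes, each from 0) in the 13 libraries by group; points are libraries, and the bars beside them are the group mean and SD. For Ftl1 and Slc11a1 all 5xFAD libraries lie above wild type, for Slc40a1 all lie below it, and Steap3 is below 1 FPKM in every library.

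The transferrin receptor gene Tfrc (chr16:32608920-32632794, plus strand) ran lowest in PKR KO. It was 3.64, 2.80 and 6.37 FPKM in wild type, highest in replicate 3. In 5xFAD EGFP it was 2.64 and 2.17 FPKM, and with circRNA it was 2.85, 2.22, 4.00 and 3.52 FPKM. In PKR KO it was 2.30, 2.14, 1.78 and 2.12 FPKM, below every wild type library. Tfrc fell by 0.72 ± 0.20 log2 units in PKR KO against wild type (limma adjusted p = 0.0138), and the call held under all 14 other settings. Without wild type replicate 3 the change was -0.45, with a limma adjusted p of 0.0414. In 5xFAD EGFP the difference was -0.58 ± 0.24, which did not pass (limma adjusted p = 0.135) and was -0.31 without wild type replicate 3. With circRNA it was -0.31 ± 0.20 and the ranges overlapped (limma adjusted p = 0.285). The difference between circRNA and PKR KO was 0.41 ± 0.18, and did not pass (limma adjusted p = 0.183). In mean level the order was wild type (4.27 ± 1.87 FPKM), circRNA (3.15 ± 0.78), 5xFAD EGFP (2.40 ± 0.34) and PKR KO (2.09 ± 0.22), and no neighbouring pair passed a test of its difference.

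Tfrc is also a gene of brain endothelium, where it carries transferrin across the barrier. The 6 endothelial and mural markers, Cldn5, Pecam1, Flt1, Rgs5, Pdgfrb and Vtn, summed to 120, 69.4 and 159 FPKM in wild type. They summed to 43.4 and 30.5 FPKM in 5xFAD EGFP, to 48.6, 40.5, 81.9 and 56.5 FPKM with circRNA and to 65.1, 44.2, 57.1 and 41.5 FPKM in PKR KO, and none was at 0. Against wild type 5 of 6 fell in 5xFAD EGFP, 3 of 6 with circRNA and 5 of 6 in PKR KO, where 14.0%, 25.8% and 37.0% of all genes passed. In each of the 4 groups the library with the highest sum also had the highest Tfrc: replicate 3 of wild type and of circRNA, and replicate 1 of 5xFAD EGFP and of PKR KO. The part of these markers in the Tfrc values was not tested.

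STEAP3, the reductase that acts beside the receptor, had little RNA. Steap3 (chr1:120190757-120272705, minus strand) was 0.463, 0.488 and 0.915 FPKM in wild type and 0.510 and 0.303 FPKM in 5xFAD EGFP. It was 0.457 to 0.558 FPKM with circRNA and 0.318 to 0.497 FPKM in PKR KO, on 95 to 264 fragments a library. All 4 groups overlapped. In a fit of all genes without the filter on low values, the difference of 5xFAD EGFP from wild type was -0.20 ± 0.11 log2 units (limma adjusted p = 0.292), and none of the 6 comparisons passed.

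DMT1, the endosomal iron transporter encoded by Slc11a2 (chr15:100387898-100425072, minus strand), moved little. It was 3.55, 3.63 and 3.10 FPKM in wild type and 4.12 and 4.30 FPKM in 5xFAD EGFP. With circRNA it was 3.87, 4.20, 4.86 and 4.50 FPKM, above every wild type library. In PKR KO it was 3.62, 4.66, 3.91 and 4.46 FPKM, where replicate 1 lay within the wild type range. The difference from wild type was 0.24 ± 0.10 log2 units in 5xFAD EGFP (limma adjusted p = 0.162) and 0.22 ± 0.09 in PKR KO (limma adjusted p = 0.0631). With circRNA it rose by 0.27 ± 0.09 (limma adjusted p = 0.0342), a call kept under 4 of 14 other settings. With the libraries rescaled to the same sum it was 0.04. The opposite strand at this locus holds Gm5475, with a mean of 0.05 FPKM.

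NRAMP1, the phagosomal metal transporter of macrophages, had more RNA in 5xFAD, as the ferritin light chain did. Slc11a1 (chr1:74375195-74386062, plus strand) was 33.3, 35.9 and 23.7 FPKM in wild type. It was 59.9 and 56.4 FPKM in 5xFAD EGFP, 59.5, 62.5, 74.0 and 53.3 FPKM with circRNA and 69.9, 65.2, 57.9 and 63.0 FPKM in PKR KO. The lowest 5xFAD library stood above the highest wild type library, and the 3 groups of 5xFAD overlapped. Slc11a1 rose by 0.91 ± 0.17 log2 units in 5xFAD EGFP (limma adjusted p = 0.00436), by 1.00 ± 0.14 with circRNA (0.000302) and by 1.04 ± 0.14 in PKR KO (0.000172). Of the settings tried, fitting 5xFAD EGFP and wild type alone lost the first of these calls (limma adjusted p = 0.0686). The 2 transporters of the family differed in level, with Slc11a1 at 7.65 to 9.88 times Slc11a2 per length in wild type and at 11.8 to 19.3 times in 5xFAD.

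The exporter went the other way. Slc40a1 (chr1:45908068-45926523, minus strand), which encodes ferroportin, was 13.9, 12.2 and 9.61 FPKM in wild type. It was 5.84 and 5.35 FPKM in 5xFAD EGFP, 5.50, 5.78, 6.62 and 5.32 FPKM with circRNA and 4.56, 4.05, 5.36 and 3.94 FPKM in PKR KO. Every 5xFAD library lay below every wild type library. Against wild type, Slc40a1 fell by 0.96 ± 0.14 log2 units in 5xFAD EGFP (limma adjusted p = 0.000988) and by 0.91 ± 0.12 with circRNA (0.000147). It fell by 1.23 ± 0.12 in PKR KO (limma adjusted p = 1.11e-05). These calls held under every other setting tried, 12, 14 and 14 of them. The PKR KO mean of 4.48 ± 0.65 FPKM was below the circRNA mean of 5.81 ± 0.58, and the difference of 0.32 ± 0.11 log2 units did not pass (limma adjusted p = 0.101).

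Ferroportin is also made by macrophages outside the brain tissue proper, and markers of border macrophages moved with it. Mrc1, Cd163, Lyve1, Pf4 and Cbr2 summed to 51.2, 57.4 and 36.0 FPKM in wild type and to 24.3 and 17.4 FPKM in 5xFAD EGFP. The sums were 13.3 to 22.9 FPKM with circRNA and 13.3 to 18.1 FPKM in PKR KO, and none of the 5 was at 0. All 5 fell against wild type in each of the 3 groups of 5xFAD, 5xFAD EGFP, circRNA and PKR KO, where 14.0%, 25.8% and 37.0% of all genes passed. Their part in the fall of Slc40a1 was not tested. The summed FPKM of 8 microglial markers was 2809 to 4567 in wild type and 3612 to 5322 over the 5xFAD libraries.

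**Figure D3:**
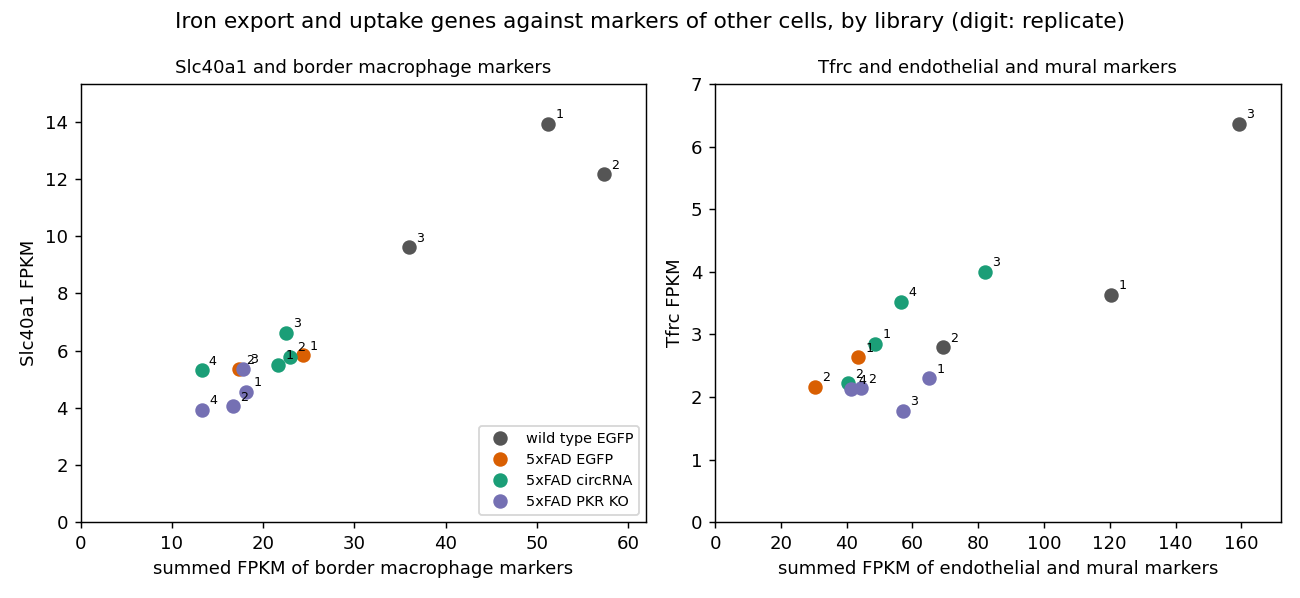
Left, Slc40a1 in FPKM against the summed FPKM of 5 border macrophage markers; right, Tfrc in FPKM against that of 6 endothelial and mural markers, 1 point a library, coloured by group and numbered by replicate. The 3 wild type libraries are high on both axes for Slc40a1, and wild type 3 is highest on both axes for Tfrc.

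Because Slc40a1 and Slc11a1 are in the same libraries, their ratio does not depend on how a library was scaled. It was 0.339 to 0.418 in wild type. In 5xFAD it was 0.0948 to 0.0975 with EGFP, 0.0895 to 0.0999 with circRNA and 0.0622 to 0.0926 in PKR KO. No 5xFAD library came near the wild type range. Every 5xFAD library was already below wild type for Slc40a1 and above it for Slc11a1. The separation of their ratio follows from that and is no further support. By contrast, the ratio of Slc40a1 to Tfrc was 1.51 to 4.35 in wild type and overlapped with all 3 groups of 5xFAD.

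Haem oxygenase 1, the inducible enzyme that frees iron from haem, is encoded by Hmox1 (chr8:75093621-75100589, plus strand). Its RNA was 12.1, 10.8 and 6.55 FPKM in wild type and 17.8 and 15.6 FPKM in 5xFAD EGFP. It was 17.6, 18.6, 17.5 and 12.4 FPKM with circRNA and 19.1, 18.1, 23.4 and 18.4 FPKM in PKR KO. All 5xFAD libraries lay above wild type, with circRNA replicate 4 only just so. Compared with wild type, Hmox1 rose by 0.75 ± 0.22 log2 units in 5xFAD EGFP (limma adjusted p = 0.0393). That call was kept under 6 of 12 other settings, and was lost without wild type replicate 3 (0.51, limma adjusted p = 0.0606), 5xFAD EGFP replicate 1 (0.218) or replicate 2 (0.140). Hmox1 rose by 0.72 ± 0.18 with circRNA (limma adjusted p = 0.0123) and by 0.97 ± 0.18 in PKR KO (limma adjusted p = 0.00158). Without wild type replicate 3 the circRNA change was 0.48.

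Red cells bring haem, and their RNA varied between libraries. The 6 erythroid markers (4 globin genes, Alas2 and Slc4a1) summed to 3.01 to 36.3 FPKM in wild type, 5.79 and 8.81 in 5xFAD EGFP, 3.92 to 129 with circRNA and 3.60 to 139 in PKR KO, with Slc4a1 at 0 in both 5xFAD EGFP libraries and in some of each other group, and Alas2 in some of 5xFAD EGFP and circRNA. PKR KO replicate 3 had both the highest sum, 139 FPKM, and the highest Hmox1, 23.4 FPKM. PKR KO replicate 2 had a sum of 3.60 FPKM and Hmox1 of 18.1, and circRNA replicate 3 had a sum of 129 FPKM and Hmox1 of 17.5. The part of red cells in the Hmox1 values was not tested.

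Counted over the tested genes, 4 of 8 passed in 5xFAD EGFP against wild type, 3 higher (Ftl1, Slc11a1, Hmox1) and 1 lower (Slc40a1), where 14.0% of all genes tested passed. With circRNA against wild type 6 of 8 passed, 5 higher and 1 lower, against 25.8% of all genes. In PKR KO against wild type 6 of 8 passed, 4 higher and 2 lower, against 37.0% of all genes. The median log2 change of the 8 was 0.49, 0.50 and 0.56 in these comparisons, and that of all genes was -0.03, 0.02 and -0.05. The genes were few and were named with earlier results of these data known, so these counts describe them and are not a test of iron genes as a class. When each of these comparisons was fitted on its own groups alone, 1 gene (Slc40a1) passed in 5xFAD EGFP, 3 genes (Ftl1, Slc11a1, Slc40a1) with circRNA and 5 genes (those 3, Hmox1 and Tfrc) in PKR KO, where 509, 1725 and 3215 of all 10817 genes passed.

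**Figure D4:**
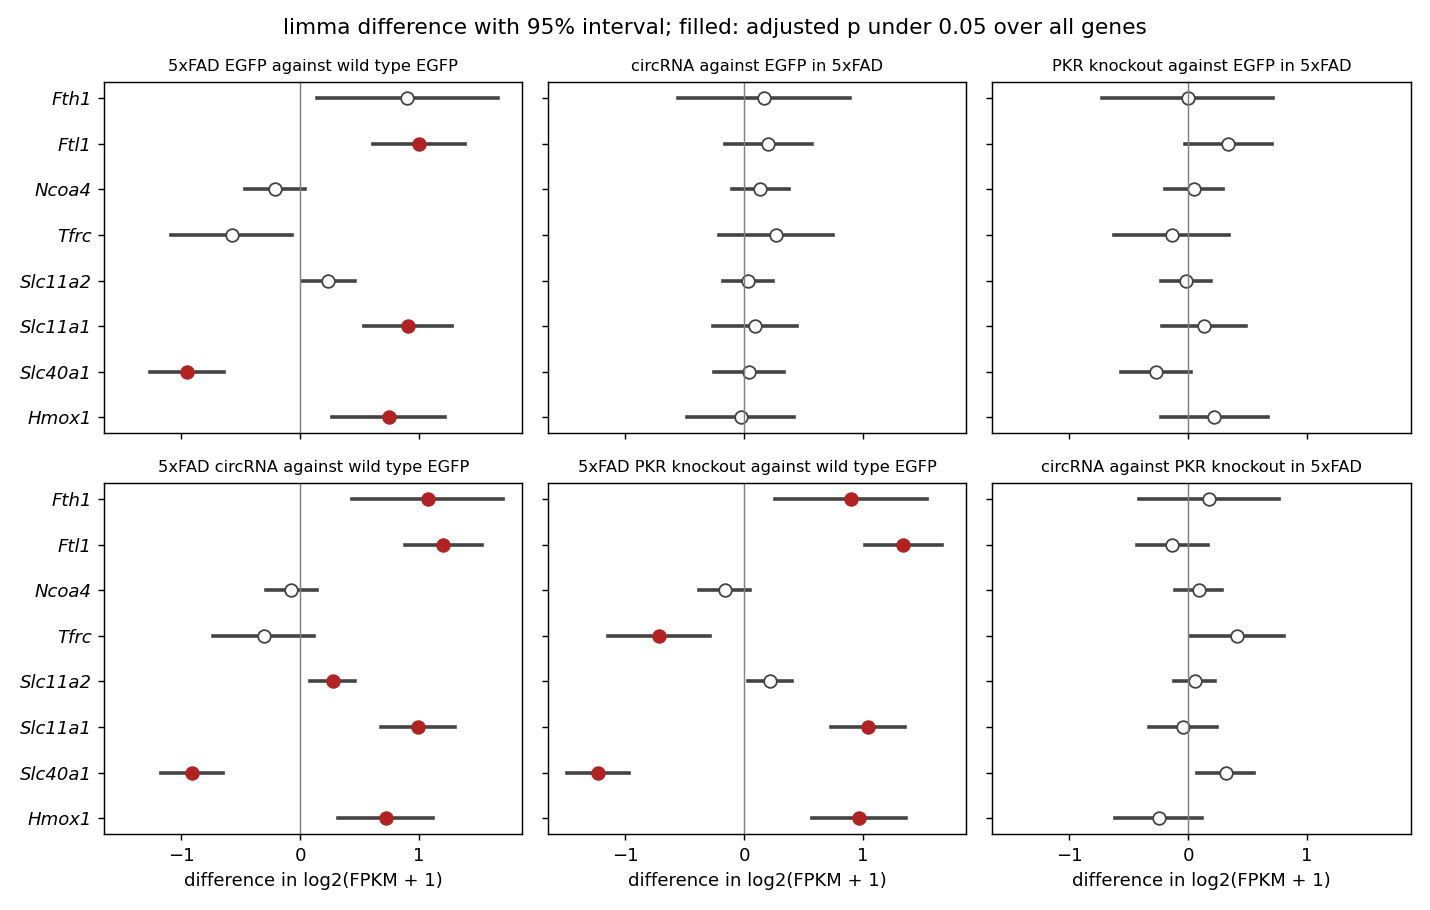
Differences in log2(FPKM + 1) of the 8 tested genes in each of 6 comparisons, with 95% intervals; filled points passed an adjusted p of 0.05 over all genes tested. The filled points are all in the 3 comparisons with wild type, 4, 6 and 6 of them.

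Within 5xFAD, the questions were whether the circular RNA or loss of PKR altered these genes. None of the 8 passed for circRNA against EGFP, where 0.00% of all genes did: limma called 0 of 10817 genes, 523 (4.83%) had an unadjusted p under 0.05, the smallest adjusted p was 0.739, and limma's voom on recovered fragments also called 0. The log2 difference was 0.20 for Ftl1 (95% interval -0.16 to 0.57), 0.04 for Slc40a1 (-0.25 to 0.34), 0.09 for Slc11a1 (-0.26 to 0.44) and -0.03 for Hmox1 (-0.48 to 0.42). For Fth1 the interval was -0.55 to 0.89 and for Tfrc -0.22 to 0.75. These intervals, from 2 EGFP libraries, do not show that the levels are alike.

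For PKR KO against EGFP none of the 8 passed, and 0.0832% of all genes did. The unadjusted p was under 0.05 in 13.0% of all genes and in none of the 8. Ftl1 was 0.34 higher (95% interval -0.03 to 0.71). Slc40a1 was lower, with a log2 difference of -0.27 (-0.57 to 0.02). For Hmox1 the difference was 0.22 (-0.23 to 0.67), and for Fth1 it was 0.00 (-0.73 to 0.72). The ranges of Ftl1 and Hmox1 did not overlap, but the share of all genes of which this holds was not counted. For circRNA against PKR KO none of the 8 passed, where 6.19% of all genes did, and at an unadjusted p under 0.05 there were Slc40a1 (0.0141) and Tfrc (0.0436), both from limma and both higher with circRNA. The share of all genes under that unadjusted p was 25.5%, and 2 of 8 is near that background.

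Around these 9 genes, lists of related genes gave calls in both directions, many of which turn on the scaling. Against wild type 14.0% of all genes passed in 5xFAD EGFP, 25.8% with circRNA and 37.0% in PKR KO. Rescaled to the same sum, 3709, 5676 and 6595 of all 10817 genes passed, and 19.1%, 17.5% and 17.8% of those were higher. With median-ratio scaling 1741, 3012 and 4204 passed, and 63.1%, 64.1% and 65.6% of those were higher.

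Among the 5 iron regulators, which sense iron or carry it in the cytosol, none passed in 5xFAD EGFP against wild type, 1 rose with circRNA, and 1 rose and 2 fell in PKR KO, against 14.0%, 25.8% and 37.0% of all genes. Rescaled to the same sum, none of the 5 was higher in any of these, and 2, 3 and 3 were lower. With median-ratio scaling 1 was higher in each, and 1 was lower in PKR KO. Aco1 and Ireb2, which encode the iron regulatory proteins that bind the hairpins above, were 6.14 ± 0.65 and 5.61 ± 0.41 FPKM in wild type and 5.71 ± 0.32 and 5.22 ± 0.01 FPKM in 5xFAD EGFP. With circRNA they were 6.37 ± 0.45 and 5.37 ± 0.25 FPKM, and in PKR KO 5.67 ± 0.07 and 4.59 ± 0.15 FPKM. Ireb2 fell by 0.24 ± 0.06 log2 units in PKR KO against wild type (limma adjusted p = 0.00760), a call lost with median-ratio scaling (-0.15, limma adjusted p = 0.0694). Fbxl5, the iron-sensing adaptor that has IRP2 degraded, was 0.29 ± 0.06 log2 units higher with circRNA than in PKR KO (limma adjusted p = 0.0182). Aco1 and Ireb2 were chosen for their role and lie outside the rule by which other genes were named.

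Among 13 genes of other iron uptake and export, 7 were tested, and 1 fell in 5xFAD EGFP: Cp, or ceruloplasmin, the ferroxidase that loads exported iron onto transferrin. Steap1, named after its values were seen, met the filter only through wild type and circRNA, its 5xFAD EGFP and PKR KO means being 0.89 and 0.50 FPKM, and is left out of the counts that follow. For 5xFAD EGFP the count is 1 of 6, against 14.0% of all genes. Cp went from 4.33 ± 1.42 FPKM in wild type to 1.91 ± 0.45 in 5xFAD EGFP, a fall of 0.85 ± 0.20 log2 units (limma adjusted p = 0.0149). It fell with circRNA by 0.62 and in PKR KO by 1.01. In the same comparisons all 5 border macrophage markers fell, and 5, 3 and 5 of the 6 endothelial and mural markers did; their part was not tested. Of the 6 uptake and export genes 2 rose and 1 fell with circRNA, and in PKR KO 1 rose and 4 fell, where 25.8% and 37.0% of all genes passed. Rescaled to the same sum, none of the 6 rose and 4 fell in 5xFAD EGFP and with circRNA, and 1 rose and 4 fell in PKR KO. With median-ratio scaling 2 rose and 2 fell with circRNA, and 1 rose and 2 fell in PKR KO. Trf, transferrin itself, rose in both and is named after its values were seen. It was 202 ± 29.8 FPKM in wild type, 294 ± 38.9 with circRNA and 299 ± 26.4 in PKR KO, rises of 0.54 and 0.57 (limma adjusted p = 0.0150 and 0.00868). The differences were 0.25 and 0.34 when rescaled to the same sum (limma adjusted p = 0.0925 and 0.0275). Oligodendrocytes also make Trf, and their marker sums were 267 to 699 FPKM with circRNA and 208 to 339 FPKM in PKR KO, against 314 to 1452 FPKM in wild type. The part of oligodendrocytes in the Trf values was not tested.

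Genes of lysosomal ferritin release and the V-ATPase, the proton pump that acidifies lysosomes and so helps free iron, were higher in part. All 10 were tested. Atp6v0d2, a pump subunit of macrophages and osteoclasts, was 0.02 ± 0.02 FPKM in wild type, with 1 library at 0, and 3.80 ± 0.26 in 5xFAD EGFP, 4.65 ± 1.30 with circRNA and 6.72 ± 1.56 in PKR KO. It met the filter of a mean of 1 FPKM only through the 5xFAD groups, where it is high, so its values are given with no test. Of the other 9 genes, 4 rose in 5xFAD EGFP, 6 with circRNA and 5 in PKR KO, with no gene called lower, where 14.0%, 25.8% and 37.0% of all genes passed. In each group 4 of the 9 rose and 1 fell when rescaled to the same sum, and with median-ratio scaling 4, 6 and 8 rose. The subunit genes Atp6v1a, Atp6v1c1 and Atp6v1b2 rose by 0.61, 0.61 and 0.51 in 5xFAD EGFP. Ncoa4, which acts in the same route, passed no comparison.

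In haem handling 15 of 17 genes were tested and none passed in 5xFAD EGFP against wild type, 1 rose and 1 fell with circRNA, and 3 rose and 4 fell in PKR KO, against 25.8% and 37.0% of all genes. Rescaled to the same sum, none rose and 4 fell in 5xFAD EGFP, none rose and 7 fell with circRNA, and 1 rose and 9 fell in PKR KO. With median-ratio scaling 2 rose and 1 fell with circRNA, and 3 rose and 3 fell in PKR KO. Flvcr1, a haem exporter, and Cpox, an enzyme of haem synthesis, were higher with circRNA than in PKR KO by 0.23 ± 0.06 and 0.27 ± 0.07 log2 units (limma adjusted p = 0.0376 and 0.0418), calls lost when libraries were rescaled to the same sum (0.0730 and 0.0692) or by median ratios (0.134 and 0.107). Of NRF2, BACH1 and the antioxidant genes, 11 of 12 were tested and 1 passed in 5xFAD EGFP against wild type: Prdx1, a peroxidase, rose by 0.50 ± 0.13 (limma adjusted p = 0.0188). Nfe2l2, which encodes NRF2, an activator of Hmox1, was named after its values were seen: it was 25.1 ± 5.66 FPKM in wild type, 33.2 ± 5.06 in 5xFAD EGFP, 38.7 ± 3.56 with circRNA and 44.1 ± 2.40 in PKR KO, and rose by 0.62 and 0.81 in the last 2, or by 0.34 and 0.59 rescaled to the same sum. In 5xFAD EGFP the difference was 0.40 (limma adjusted p = 0.136, and 0.0495 with median-ratio scaling). Slc7a11, the cystine transporter subunit, named after its values were seen, averaged 0.85 FPKM in PKR KO and is left out of the counts that follow. Of the other 10 genes 4 rose with circRNA, and 4 rose and 2 fell in PKR KO, against 25.8% and 37.0% of all genes. Rescaled to the same sum, 1 rose and 2 fell in 5xFAD EGFP, 2 rose and 5 fell with circRNA, and 2 rose and 2 fell in PKR KO. With median-ratio scaling 2 rose in 5xFAD EGFP, 4 rose and 1 fell with circRNA, and 6 rose and 1 fell in PKR KO.

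Of 6 tested mitochondrial iron genes none passed in 5xFAD EGFP, and 1 fell with circRNA and in PKR KO, against 25.8% and 37.0% of all genes. When rescaled to the same sum, 1, 2 and 4 of them fell in the 3 groups, and with median-ratio scaling 1 rose and 1 fell in PKR KO. Of 6 tested ferroptosis genes 1 fell with circRNA and 2 in PKR KO, against 25.8% and 37.0% of all genes, and rescaled to the same sum 2 fell in 5xFAD EGFP, 2 with circRNA and 4 in PKR KO. In 5xFAD EGFP 1 fell, Lpcat3, which puts polyunsaturated chains into phospholipids, by 0.49 ± 0.14 (limma adjusted p = 0.0313, and 0.0644 with median-ratio scaling).

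**Figure D5:**
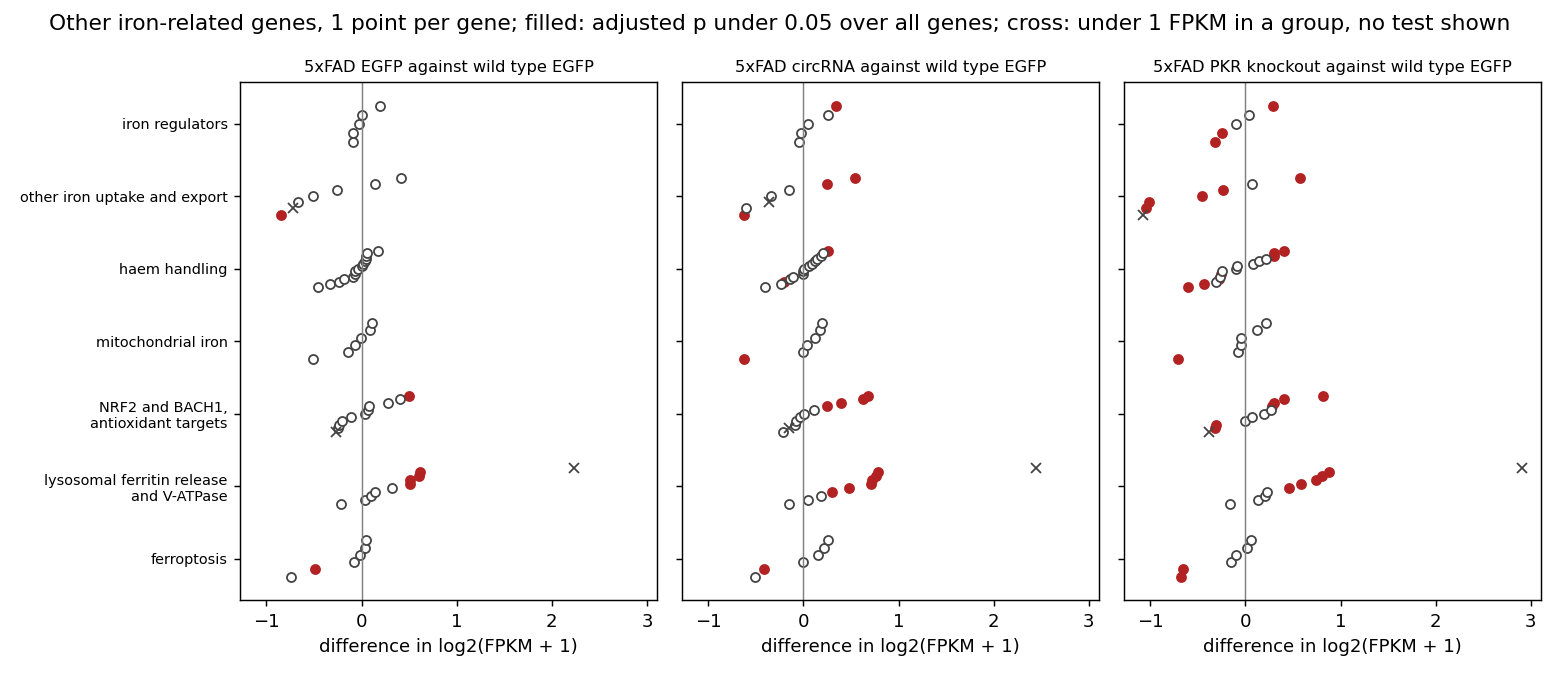
Differences from wild type in log2(FPKM + 1) for genes of 7 iron-related lists (rows), 1 point a gene, in the 3 groups of 5xFAD; filled points passed an adjusted p of 0.05 over all genes tested. Crosses are genes under 1 FPKM in a group (Atp6v0d2, Steap1 and Slc7a11), shown with no test. In the lysosomal row 4, 6 and 5 points are filled and all of these lie to the right of 0.

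The genes whose levels followed each member most closely over the 13 libraries are given by Pearson's r of log2(FPKM + 1), as a description, since the libraries share the split between wild type and 5xFAD. They were Ctsl (0.995), Dpp7 and Gm49369 for Ftl1, Ctsa (0.991), Glb1 and Hexa for Slc11a1, and Serpinf1 (0.995), Slco4a1 and Ggta1 for Slc40a1. For Hmox1 they were Fcgr2b (0.961), Calr and Chn2. For Fth1 they were Zfp704 (0.950), Arap2 and Fgf1, and for Tfrc Tnfrsf19 (0.982), Gpcpd1 and Maoa. For Slc11a2 they were Slc25a10 (0.910), Soat2 and Sp110, and for Ncoa4 Gpbp1l1 (0.957), Zfp746 and Isg20l2. No gene was among the closest 3 of more than 1 member.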

How the data were processed

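Microglial RNA was sequenced after ribosomal depletion with a stranded kit, per the labels' protocols. The submitters' processing notes name HISAT2 2.1.0, Bowtie2 2.3.5, featureCounts 1.5.1 and build mm10, with no role or order; how counting treated the strand is not given in the sources used here. The authors deposited FPKM values, 1 column a library. Since FPKM divides by the library's total, other abundant genes can shift a value. Depth was recovered from the steps of low FPKM values and exon lengths of GENCODE M21 (19394 of 19737 genes had a length); 88.5% to 91.3% of low values were whole within 0.05 of a fragment.

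limma 3.58.1 in R 4.3.3 fitted log2(FPKM + 1) over all 13 libraries and 4 groups (9 residual degrees of freedom), with an intensity trend and two-sided tests, and was tested on simulated data. Alternatives were a pseudocount of 0.1, no filter, 2 scalings, 2 groups alone, a replicate block, each library left out, and voom, the last chosen after seeing the data. Members and lists were chosen with earlier results of these data known. Named were all members, Eif2ak2, up to 4 passing genes a list (by adjusted p, in 5xFAD EGFP against wild type or among the 5xFAD groups), and the 3 genes most correlated with each member; others are marked. P-values measure the spread between these libraries. 1 listed oligodendrocyte marker is not reported here. Counts of list genes without Atp6v0d2, Steap1 and Slc7a11, each under 1 FPKM in a group, were added after seeing the data.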

Additional observations from a re-analysis of the deposited data

How the results depend on the processing

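Over the alternatives, 25 of 81 counts of all genes passing moved over 1.5 times, and 2 of 81 counts of iron genes, which are 0 within 5xFAD under every setting and small elsewhere, so that they show little of stability. With 2 groups alone, the iron genes passing were 1 in 5xFAD EGFP and 3 with circRNA against wild type. All genes passing in 5xFAD EGFP against wild type were 1514, 509 with 2 groups alone, 3709 rescaled to the same sum, and 566 to 1998 leaving out 1 library (566 without 5xFAD EGFP replicate 2, 666 without replicate 1). With circRNA against wild type they were 2796, 1725 with 2 groups alone and 5676 rescaled. In PKR KO against wild type they were 3997, and 6595 rescaled. For PKR KO against EGFP they were 9, and 577 with 2 groups alone, 46 with median-ratio scaling, 16 with voom, 22 with the replicate block, 0 with a pseudocount of 0.1, with no filter and rescaled, and 0 to 2 leaving out 1 library. For circRNA against PKR KO they were 670, and 147 to 506 leaving out 1 library (147, 164 and 225 without PKR KO replicates 1, 2 and 3, 162 and 310 without circRNA replicates 1 and 3).

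Rescaling to the same sum moved the median of all genes to -0.17, -0.20 and -0.24 log2 units in 5xFAD EGFP, circRNA and PKR KO against wild type, and the share of calls that were higher from 54.6%, 68.8% and 47.5% to 19.1%, 17.5% and 17.8%. Median-ratio scaling moved that share to 65.6% in PKR KO against wild type and from 69.1% to 17.5% for circRNA against PKR KO, where rescaling gave 49.6%.

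Of 648 recomputed log2 changes of the iron genes 577 kept direction and call, 31 lost the call, 10 gained it and 30 changed sign. Changes of sign were all in values that passed no test. For circRNA against EGFP they were, with the replicate block, Fth1 -0.0145 and Hmox1 0.101; rescaled, Slc11a1 -0.0258, Slc11a2 -0.0594 and Slc40a1 -0.0565; with median-ratio scaling, Slc11a2 -0.0363 and Slc40a1 -0.0318; with voom, Slc11a1 -0.00953, Slc11a2 -0.0555 and Slc40a1 -0.0495. For PKR KO against EGFP they were, with median-ratio scaling, Fth1 0.0361 and Slc11a2 0.0153, and with voom Ncoa4 -0.00564. For circRNA against PKR KO they were, with median-ratio scaling, Slc11a2 -0.0515 and Ncoa4 -0.0121. Leaving out 1 library, the ranges that crossed 0 were for circRNA against EGFP, Fth1 -0.00653 to 0.347, Hmox1 -0.117 to 0.0972, Slc40a1 -0.0127 to 0.0966, Slc11a2 -0.00883 to 0.0804, for PKR KO against EGFP, Fth1 -0.182 to 0.172, Slc11a2 -0.0638 to 0.0333, Ncoa4 -0.0373 to 0.131, for circRNA against wild type, Ncoa4 -0.162 to 0.00851, for circRNA against PKR KO, Slc11a1 -0.129 to 0.0268. The cause was not tested.

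Nothing in the labels pairs same-numbered libraries, and not every pair deviated together: the mean correlation of deviations was 0.14 (16 pairs, -0.42 to 0.69, 8 over 0.1), with replicate 2 at 0.17 to 0.69 in every pair, and that of differently numbered libraries was -0.05. Adding the replicate block, Hmox1 in 5xFAD EGFP (limma adjusted p = 0.0649), Slc11a2 with circRNA (0.0670) and Fth1 in PKR KO (0.0627) no longer passed against wild type. Depth limits Steap3, with a counting error of 6.15% to 10.3%.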
